A study of Mus musculus with 11 samples.

Results

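The aldehyde dehydrogenases are enzymes that oxidise aldehydes to carboxylic acids with NAD+ or NADP+. Transcripts of 10 of their genes (Aldh1b1, Aldh4a1, Aldh1a1, Aldh1a7, Aldh2, Aldh3a2, Aldh6a1, Aldh7a1, Aldh8a1 and Aldh9a1) were followed in mouse liver. They were measured by every probe set that the platform annotation gives to exactly 1 of these symbols, which made 16 of the 22626 probe sets on the array that are not controls. Livers of 6 Gsr-null mice were compared with those of 5 wild-type (WT) mice. All were C57BL/6J males aged 15 to 20 weeks, no treatment is given for either group, and livers were taken between 2 and 4 in the afternoon. Gsr encodes glutathione reductase, which regenerates reduced glutathione with NADPH. The labels do not say how the null allele was made.

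In the liver these enzymes clear acetaldehyde from ethanol, reactive aldehydes from lipid peroxidation and the semialdehydes that arise when amino acids are broken down. They use a catalytic cysteine and differ in compartment and preferred substrate. Some detoxify aldehydes of many kinds, while others hold a single step in the breakdown of proline, valine, lysine or tryptophan, in carnitine synthesis or in the formation of retinoic acid.

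Values are log2 expression values per probe set. The level of Gsr matched the labels on both of its probe sets: the brighter one averaged 4.99 ± 0.207 in Gsr-null livers (SD, n = 6) and 6.82 ± 0.126 in WT livers (SD, n = 5). Arrays were similar, with Pearson's r across tested probe sets of 0.935 to 0.989 between any pair of samples. The 8 hepatocyte markers on the array, Alb and Ttr among them, all passed the filter on low values, and their mean lay between 13.21 and 13.53 in Gsr-null livers, against 13.01 to 13.40 in WT livers. Array quality differed in a pair of respects that touch these results. Gsr-null samples 2 and 3 had a higher floor (5th percentile 1.79 and 1.76, against 1.53 to 1.62 in the other samples). The difference between 3' and 5' control probe sets of Gapdh and Actb, which reflects RNA integrity and labelling, split the samples into a set with lower values (Gsr-null 1, 2 and 3, WT 2 and 4) and a set with higher values (Gsr-null 4, 5 and 6, WT 1, 3 and 5).

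Of the 16 member probe sets, 14 passed the filter, a value over 4 on 5 or more arrays, and were tested with limma, and they covered all 10 genes. The 2 others belong to Aldh7a1 and lay between 1.51 and 3.36 in every sample. Aldh1b1 rose in Gsr-null livers and was the 1 member probe set of 14 called at an adjusted p under 0.05, while 0.387% of all 9560 tested probe sets were called and 0.167% were called higher. It was also the 1 tested member probe set whose genotypes did not overlap, as was so for 1.36% of all tested probe sets. Aldh4a1 had the next smallest p and did not pass. At an unadjusted p under 0.05 there were these 2 member probe sets, where 8.36% of all tested probe sets reached that level. The difference was positive for 7 member probe sets and negative for 7, with a median of -0.035, against a positive share of 43.3% and a median of -0.029 over all tested probe sets.

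**Figure D1:**
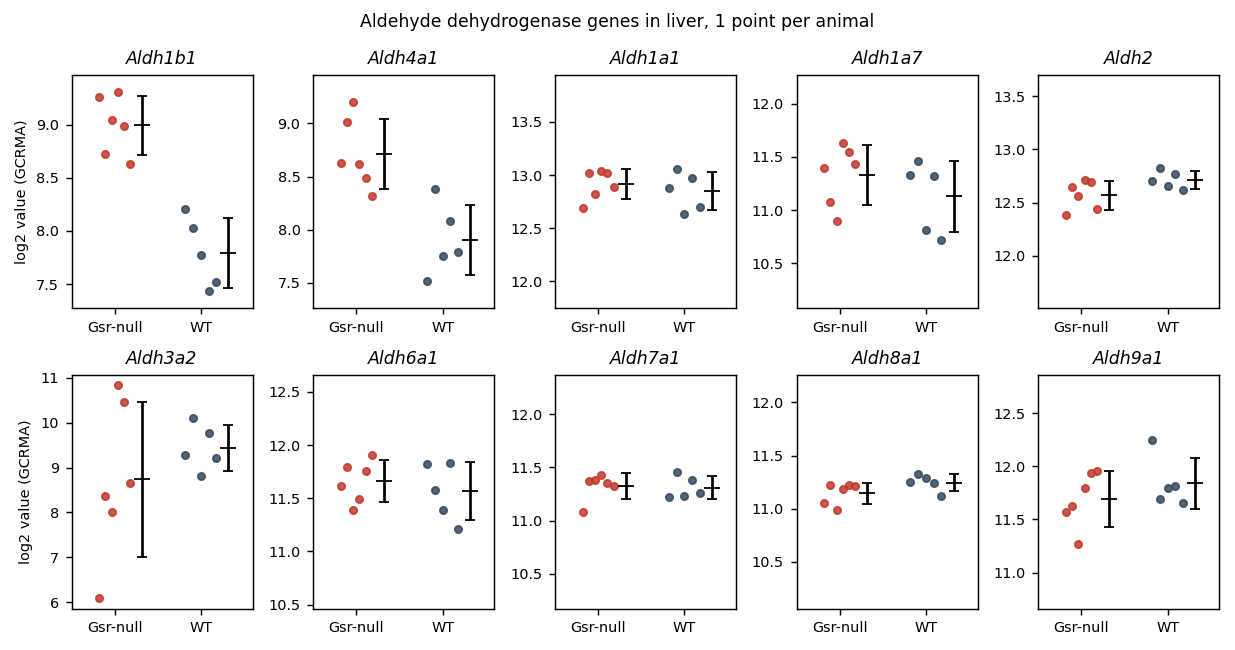
Log2 value of each aldehyde dehydrogenase gene on its brightest tested probe set, 1 panel per gene, with 1 point per animal for Gsr-null (left, red) and WT (right, blue) livers and the mean with its SD beside each group. Panels differ in their range of values, and only for Aldh1b1 do the points of the genotypes not overlap, while the Gsr-null points of Aldh3a2 run from 6.09 to 10.83.

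The windows around the annotated start sites of Aldh1b1, Aldh4a1 and Aldh3a2 are shown because the main results turn on these genes. Each runs 5′ to 3′ on the strand of its gene, from 250 bases before to 50 bases after the start, and comes from RefSeq (GRCm38.p6). The Aldh1b1 window is chr4:45798772-45799071 on the plus strand, that of Aldh4a1 is chr4:139622644-139622943 on the plus strand, and that of Aldh3a2 is chr11:61267137-61267436 on the minus strand. Capitals mark the CCAAT box (CCAAT, or ATTGG where it lies on the other strand) and the GC box (GGGCGG, or CCGCCC on the other strand), which do not overlap here.
Aldh1b1: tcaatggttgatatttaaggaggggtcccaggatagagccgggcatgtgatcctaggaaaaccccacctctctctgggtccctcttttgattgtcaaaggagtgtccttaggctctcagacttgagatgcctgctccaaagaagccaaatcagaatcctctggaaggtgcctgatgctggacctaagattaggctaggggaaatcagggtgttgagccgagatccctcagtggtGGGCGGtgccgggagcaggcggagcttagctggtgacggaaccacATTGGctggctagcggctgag
Aldh4a1: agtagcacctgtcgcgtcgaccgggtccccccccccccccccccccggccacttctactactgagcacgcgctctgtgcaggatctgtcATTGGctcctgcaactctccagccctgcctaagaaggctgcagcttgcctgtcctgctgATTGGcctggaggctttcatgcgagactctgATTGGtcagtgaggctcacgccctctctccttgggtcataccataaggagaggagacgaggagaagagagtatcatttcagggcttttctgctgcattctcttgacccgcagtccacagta
Aldh3a2: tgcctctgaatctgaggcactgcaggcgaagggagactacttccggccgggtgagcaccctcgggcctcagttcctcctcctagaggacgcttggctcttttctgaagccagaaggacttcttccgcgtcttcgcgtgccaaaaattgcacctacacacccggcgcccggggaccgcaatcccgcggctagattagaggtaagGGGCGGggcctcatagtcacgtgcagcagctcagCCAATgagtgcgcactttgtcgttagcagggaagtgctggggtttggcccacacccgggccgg

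Aldh1b1 held 1 CCAAT box and 1 GC box, Aldh4a1 held 3 CCAAT boxes and Aldh3a2 1 of each. Among all 32851 windows of this length in the table, 37.4% held CCAAT and 35.7% held GGGCGG on either strand. The core of the antioxidant response element (TGACNNNGC, either strand, in 12.4% of all windows) and the nuclear receptor half-site AGGTCA (in 16.3%) matched in none of the 3. The E-box CACGTG, present in 7.15% of all windows, matched once in Aldh3a2. Of 10 windows found for 8 member genes, 8 held a CCAAT box and 1, that of Aldh9a1, the antioxidant response element core. These are matches of letters and not sites shown to be bound.

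Aldh1b1 encodes a mitochondrial enzyme that oxidises acetaldehyde and other short aldehydes. Its value was 9.26, 8.72, 9.04, 9.31, 8.99 and 8.63 in Gsr-null samples 1 to 6, against 8.21, 8.03, 7.77, 7.43 and 7.52 in WT samples 1 to 5. Every Gsr-null liver thus lay above every WT liver. The mean was 8.99 ± 0.275 in Gsr-null (SD, n = 6) and 7.79 ± 0.331 in WT livers (SD, n = 5). Aldh1b1 rose by 1.20 on the log2 scale, a fold of 2.3 (SE 0.178, 95% interval 0.81 to 1.59, limma adjusted p = 0.013), the 14th smallest p of 9560. The difference for Aldh1b1 was 1.28 within the set of lower and 1.14 within the set of higher 3' minus 5' difference. Genotypes did not overlap in either set. Among member probe sets this held for 11 of 14 in the lower set, against 29.8% of all tested probe sets. For the higher set it held for 5 of 14, against 14%. Members thus exceeded the share of all tested probe sets each time, and the reason was not tested. Of the 14 member differences in the lower set, 12 were negative, and only those of Aldh1b1 and Aldh4a1 were positive. With 2 or 3 samples a group, non-overlap within a set is little support for the rise of Aldh1b1. The call was lost without WT sample 5 (1.13, limma adjusted p = 0.0524) and without Gsr-null samples 2 and 3 together (1.26, limma adjusted p = 0.0625), while the size of the difference stayed between 1.11 and 1.30 on leaving out any 1 sample. Aldh1b1 was measured by 1 probe set, so no second probe set checks it.

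Aldh2, the mitochondrial enzyme that carries most acetaldehyde oxidation in liver, did not pass the test. On its brightest probe set it ran from 12.38 to 12.71 with a median of 12.61 in Gsr-null livers, against 12.70, 12.83, 12.66, 12.77 and 12.62 in WT livers. The genotypes overlapped, and the difference was -0.14 (95% interval -0.37 to 0.08, limma adjusted p = 0.853). The 2 other Aldh2 probe sets differed by 0.05 and -0.08. On these 2, WT values ranged over 1.49 and 1.09, from a low in sample 1 to a high in sample 2, and Gsr-null values over 0.26 and 0.33. Aldh1b1 changed unequally to Aldh2 within the same arrays. The log2 value of Aldh1b1 minus that of Aldh2 was -3.94 to -3.12 in Gsr-null livers, against -5.34 to -4.49 in WT livers, where the sizes depend on the probes and only the shift between genotypes can be read. That shift was 1.34 (exact two-sided permutation p = 0.00433 over 462 splits, the smallest these groups can give), with the Gsr-null value above every WT value in 6 of 6 samples. Because Aldh1b1 alone already separated the genotypes, this p is no separate support for its rise.

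Aldh4a1, the mitochondrial pyrroline carboxylate dehydrogenase that makes glutamate from the product of proline oxidation, lay on the same side as Aldh1b1. It was 8.63, 9.01, 9.20, 8.62, 8.49 and 8.32 in Gsr-null samples 1 to 6, against 7.52, 8.38, 7.75, 8.08 and 7.79 in WT samples 1 to 5. A single pair overlapped: WT sample 2 lay just above Gsr-null sample 6. The mean was 8.71 ± 0.331 in Gsr-null (SD, n = 6) and 7.90 ± 0.331 in WT livers (SD, n = 5), a difference of 0.81 (SE 0.191, 95% interval 0.39 to 1.22, limma adjusted p = 0.149). Aldh4a1 also differed between the 3' to 5' sets, by -0.58 in the higher against the lower set. The differences within the sets were 0.72 and 0.79, with means of 8.95 in Gsr-null and 8.23 in WT livers of the lower set, and of 8.48 in Gsr-null and 7.69 in WT livers of the higher set. With the sets as a block Aldh4a1 passed the test (0.76, limma adjusted p = 0.0255), so its call depends on that term. Without Gsr-null samples 2 and 3, which were the highest, the difference was 0.61 (limma adjusted p = 0.386).

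**Figure D2:**
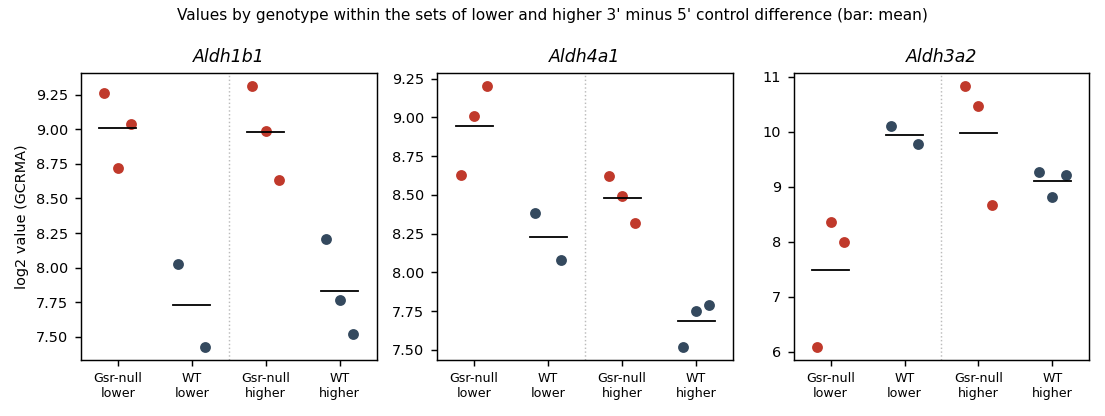
Log2 values of Aldh1b1, Aldh4a1 and Aldh3a2 by genotype within the sets of lower (left of the dotted line) and higher (right) 3' minus 5' control difference, 1 point per animal, with bars at the group means. Gsr-null points (red) of Aldh1b1 and Aldh4a1 lie above the WT points (blue) in both sets, while those of Aldh3a2 lie below WT in the lower set and around it in the higher set.

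The other genes of proline and hydroxyproline breakdown did not pass. Of 6 tested, 0 were called and 6 had a positive difference, of 0.03 to 0.19, with a median of 0.12, where 42.7% of all tested genes were positive. Prodh2, the hydroxyproline dehydrogenase, had the smallest p (0.17, limma adjusted p = 0.93). Prodh, which supplies the substrate of Aldh4a1 from proline, differed by 0.06, and Hoga1, of hydroxyproline breakdown, by 0.03.

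The remaining mitochondrial members each hold a step of amino acid breakdown and showed narrow differences. Aldh6a1, the methylmalonate semialdehyde dehydrogenase of valine and thymine breakdown, ran from 11.39 to 11.91 with a median of 11.69 in Gsr-null livers, against 11.82, 11.58, 11.39, 11.83 and 11.21 in WT livers. The genotypes shared nearly the whole range, and the difference was 0.09 (95% interval -0.23 to 0.41, limma adjusted p = 0.972). Aldh7a1, the aminoadipic semialdehyde dehydrogenase of lysine breakdown, also found in the cytosol, ran from 11.08 to 11.43 with a median of 11.36 in Gsr-null livers, against 11.22, 11.46, 11.23, 11.38 and 11.26 in WT livers. Its difference was 0.01 (95% interval -0.21 to 0.24, limma adjusted p = 0.999), the smallest of the 10 genes. Among 18 tested genes of branched-chain amino acid and propionate breakdown 0 were called, 12 were positive and the median difference was 0.02. Abat, the transaminase of beta-alanine and GABA, had the smallest p there (0.24, limma adjusted p = 0.738). Among 6 tested genes of lysine breakdown 0 were called, 3 were positive and the median was 0.04. Gcdh, the glutaryl-CoA dehydrogenase, had the smallest p there (-0.28, limma adjusted p = 0.797).

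Aldh1a1, the cytosolic enzyme that turns retinal into retinoic acid, and Aldh1a7, its rodent paralog, are neighbours on chromosome 19. No other protein-coding gene lies between them in the order of GRCm38.p6. Aldh1a1 ran from 12.69 to 13.04 with a median of 12.95 in Gsr-null livers, against 12.88, 13.06, 12.63, 12.97 and 12.70 in WT livers. Aldh1a7 ran from 10.90 to 11.63 with a median of 11.41 in Gsr-null livers, against 11.33, 11.46, 10.81, 11.32 and 10.72 in WT livers. Genotypes overlapped on both genes, with differences of 0.06 for Aldh1a1 (95% interval -0.19 to 0.32, limma adjusted p = 0.979) and 0.20 for Aldh1a7 (95% interval -0.19 to 0.59, limma adjusted p = 0.92). The sign differed by 3' to 5' set: -0.17 (lower) and 0.24 (higher) for Aldh1a1, and -0.26 (lower) and 0.58 (higher) for Aldh1a7. In the higher set the genotypes did not overlap on either gene, as was so for 14% of all tested probe sets. Within arrays Aldh1a7 shifted by 0.14 relative to Aldh1a1 (exact two-sided permutation p = 0.346). Without Gsr-null samples 2 and 3 that shift was 0.31 (exact two-sided permutation p = 0.0159, the smallest that the samples left can give). Of 31 values of the within-array shifts under alternatives, this was the 1 that changed. Since the genes are close copies, their probe sets may share signal, which was not tested.

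Aldh8a1 and Aldh9a1 are cytosolic enzymes of the kynurenine pathway and of carnitine synthesis. Aldh8a1, which oxidises aminomuconic semialdehyde, ran from 10.99 to 11.22 with a median of 11.20 in Gsr-null livers, against 11.25, 11.33, 11.29, 11.24 and 11.12 in WT livers. The difference was -0.10 (95% interval -0.31 to 0.11, limma adjusted p = 0.934). Its second probe set was wider in both genotypes and moved with the 3' to 5' sets, by -0.84 in the higher against the lower set, while the brighter one moved by 0.04. Aldh9a1, which makes the aldehyde precursor of carnitine into its acid, ran from 11.27 to 11.96 with a median of 11.72 in Gsr-null livers, against 12.25, 11.69, 11.80, 11.81 and 11.65 in WT livers. The genotypes overlapped, and its 2 probe sets differed by -0.14 and -0.17 (limma adjusted p = 0.946 and 0.933).

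**Figure D3:**
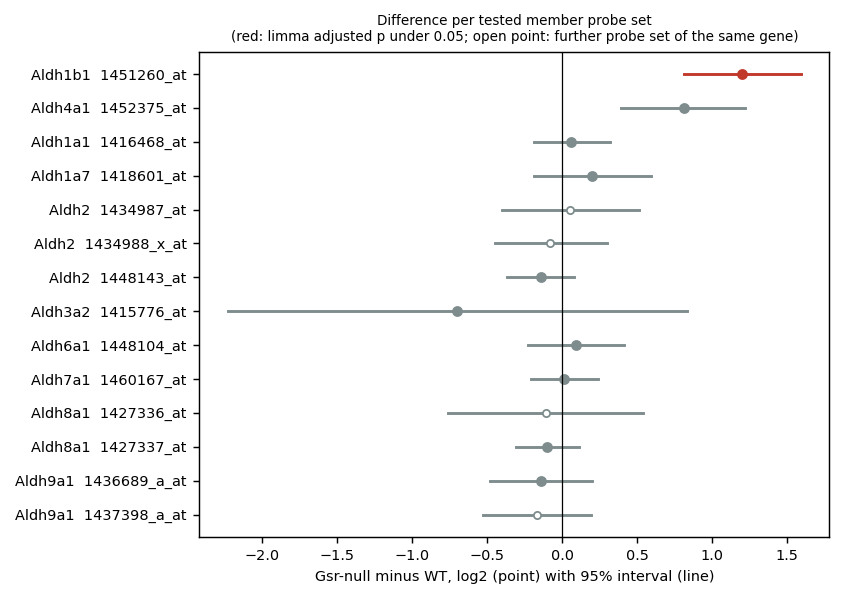
Difference of group means, Gsr-null minus WT, on the log2 scale for the 14 tested member probe sets (points; open points are further probe sets of the same gene) with 95% intervals from limma (lines). The interval of Aldh1b1 runs from 0.81 to 1.59 and is the 1 drawn in red for an adjusted p under 0.05. That of Aldh4a1 also lies above 0, and that of Aldh3a2, from -2.23 to 0.83, is the widest.

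Over the 7 genes other than Aldh1b1, Aldh4a1 and Aldh3a2, differences on the brightest probe set lay between -0.14 and 0.20. On those probe sets each gene's own 95% interval lay within -0.48 and 0.59. Intervals were wider on the second probe set of Aldh8a1 (-0.76 to 0.54) and of Aldh9a1 (-0.53 to 0.19). They were also wider on the 2 other Aldh2 probe sets (-0.40 to 0.51 and -0.45 to 0.30) than on its brightest. Gsr-null minus WT was positive for 2 and negative for 12 of the 14 member probe sets within the lower 3' to 5' set, where 47.7% of all tested probe sets were positive. Within the higher set it was positive for 9, negative for 2 and at 0 for 3, where 40.4% of all tested probe sets were positive. Probe sets of 1 gene share their transcript, and the part of RNA integrity in these differences was not tested. Since whole liver was measured, fewer cells of a type and less RNA per cell cannot be told apart for any of these genes.

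Aldh3a2 varied far more between Gsr-null livers than any other member. It encodes the fatty aldehyde dehydrogenase of the endoplasmic reticulum, and in rodent liver it is a known target of the lipid-sensing receptor PPAR-alpha. Aldh3a2 was 6.09, 8.36, 8.0, 10.83, 10.47 and 8.66 in Gsr-null samples 1 to 6, against 9.27, 10.10, 8.81, 9.78 and 9.21 in WT samples 1 to 5. Gsr-null samples 4 and 5 thus lay above every WT liver, and samples 1, 2, 3 and 6 below every WT liver. The SD was 1.74 in Gsr-null (n = 6) and 0.508 in WT livers (n = 5), while the other 9 members had Gsr-null SDs of 0.0987 to 0.331. Of all tested probe sets, 99.5% had a Gsr-null SD no larger than that of Aldh3a2. The difference of means was -0.70 (SE 0.703, 95% interval -2.23 to 0.83, limma adjusted p = 0.937). It was -0.17 without Gsr-null sample 1, -1.12 without sample 4, -1.05 without sample 5, -0.42 without samples 2 and 3 together and -0.24 with array weights, so its size rests on single livers. It was -2.46 between genotypes of the lower 3' to 5' set and 0.89 between those of the higher one. Because Gsr-null samples 4 and 5 are both in the higher set and samples 1, 2 and 3 all in the lower, the part of RNA integrity in this spread was not tested. The order of the sets differed between genotypes: Gsr-null livers averaged 7.48 (lower set) and 9.99 (higher set), against 9.94 (lower set) and 9.10 (higher set) in WT livers.

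Genes whose pattern over the 11 samples was most like that of Aldh3a2 were then listed by Pearson's r among 6021 other tested genes, a step chosen after its values had been seen. The highest r was that of Acaa1b, a peroxisomal thiolase of fatty acid oxidation (r = 0.965, Spearman's rho = 0.936). Acaa1b was 12.21, 13.03, 13.04, 13.95, 13.80 and 12.82 in Gsr-null samples 1 to 6, against 13.28 to 13.71 in WT livers. That samples 4 and 5 were the highest follows from the choice of the gene by its r. Dtnbp1 (r = 0.957) and Ehhadh, the peroxisomal bifunctional enzyme of fatty acid oxidation (r = 0.943), came next. They were followed, in order, by Gstt1, a glutathione transferase, Ropn1l, Scd1, the stearoyl-CoA desaturase, Tk2, the mitochondrial thymidine kinase, and Ech1, a dienoyl-CoA isomerase, so the first 8 held fatty acid enzymes and others. Most opposite were F11, coagulation factor XI (r = -0.941), Saa3, an acute phase serum amyloid (r = -0.923), and Masp1, a protease of the lectin pathway (r = -0.922). Saa3 was 11.38, 7.49, 8.91, 5.28, 5.20 and 9.80 in Gsr-null samples 1 to 6, against 5.61 to 7.49 in WT livers. Without the 2 samples farthest from the median of Aldh3a2, Gsr-null 1 and 4, r was 0.897 for Acaa1b and -0.84 for Saa3 over 9 samples. All these values share the same arrays, and with so many genes compared the r values describe these samples only.

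**Figure D4:**
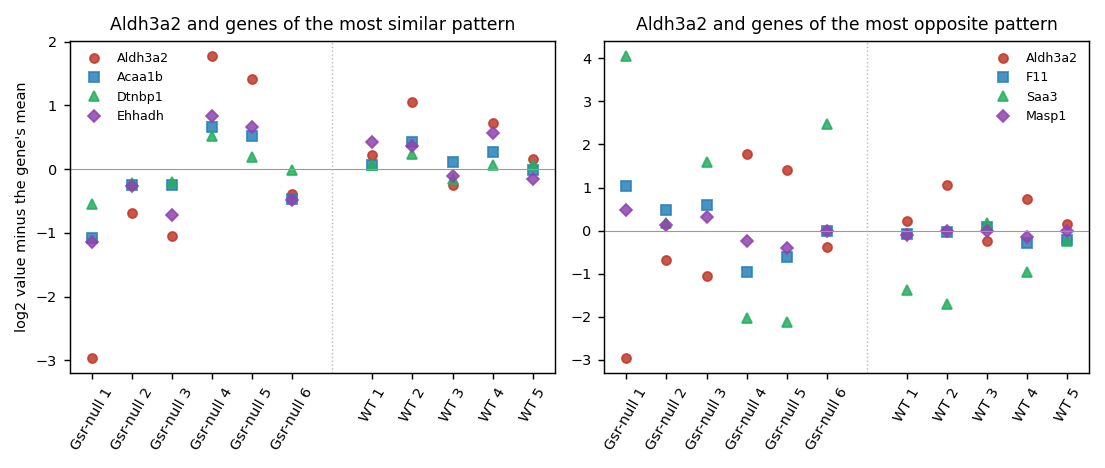
Log2 values by sample, each minus the mean of its gene over all 11 samples, for Aldh3a2 with the 3 genes of the highest r (left) and the 3 of the lowest r (right), Gsr-null samples left of the dotted line and WT samples right. Aldh3a2 is lowest in Gsr-null sample 1, where Saa3 is highest at 11.38, and highest in samples 4 and 5, where Saa3 is lowest at 5.28 and 5.20.

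Genes that form long-chain aldehydes or that release and hydroxylate fatty acids did not pass. Of 6 tested in that list, 0 were called, 3 were positive and the median was 0.05. Ppt1, a lysosomal thioesterase that removes fatty acids from proteins and forms no aldehyde, had the smallest p: it was 6.22, 5.78, 6.22, 6.19, 6.20 and 5.64 in Gsr-null samples 1 to 6, against 5.05, 5.59, 5.42, 4.97 and 5.04 in WT samples 1 to 5. These groups did not overlap, as was so for 1.51% of all tested genes, and the difference was 0.83 (SE 0.162, limma adjusted p = 0.0607). Cyp4a14, a fatty acid omega-hydroxylase and a known PPAR-alpha target, was 2.55, 4.87, 2.00, 10.95, 7.39 and 3.49 in Gsr-null samples 1 to 6, against 8.14, 9.42, 4.76, 7.66 and 5.85 in WT samples 1 to 5. Its highest value overall was in Gsr-null sample 4, as for Aldh3a2, and samples 1, 3 and 6 lay below every WT liver.

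Other pathways that meet at these enzymes also held no called gene. Over all 10 pathway lists 70 genes were tested, 0 were called by limma, where 0.432% of all tested genes were, and 3 had an unadjusted p under 0.05, where 8.78% of all tested genes did. Their median difference was 0.04, against -0.032 over all tested genes. Among genes of retinal formation and retinoic acid breakdown 0 of 10 were called and 6 were positive, with a median of 0.06. Rdh9, a retinol dehydrogenase, had the smallest p there: it was 9.84, 8.40, 9.58, 8.54, 9.41 and 8.95 in Gsr-null livers, against 10.14, 10.08, 9.81, 10.23 and 10.53 in WT livers. The difference was -1.04 (SE 0.257, limma adjusted p = 0.166), and only Gsr-null sample 1 and WT sample 3 overlapped. Its probe set can bind related transcripts by design.

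Among alcohol dehydrogenases and other enzymes that form or remove small aldehydes, among them the aldehyde oxidases Aox1 and Aox3 and the reductase Akr1a1, 0 of 8 were called and 4 were positive, with a median of -0.04. Adh4 had the smallest p (-0.27, limma adjusted p = 0.717). In choline and betaine oxidation 0 of 6 were called (median 0.10), with Bhmt, the betaine-homocysteine methyltransferase, at 0.16 (limma adjusted p = 0.831). In carnitine synthesis and uptake 0 of 4 were called (median -0.16), with Tmlhe, the trimethyllysine hydroxylase, at 0.45 (limma adjusted p = 0.898). In the kynurenine pathway 0 of 5 were called (median -0.03), with Qprt, which forms nicotinate mononucleotide, at 0.18 (limma adjusted p = 0.867). Of the other aldehyde dehydrogenase genes 7 of 10 were on the array and 2 were tested, with 0 called: Aldh16a1 differed by 0.25 (limma adjusted p = 0.82) and Aldh1l1, the cytosolic formyltetrahydrofolate dehydrogenase, by 0.14 on its brightest probe set (limma adjusted p = 0.898). A second tested Aldh1l1 probe set, with means of 5.06 in Gsr-null and 4.04 in WT livers, differed by 1.03 (limma adjusted p = 0.198). This probe set passed the filter only through the Gsr-null livers, with values of 3.66 to 4.39 in WT livers. Its genotypes did not overlap, as was so for 1.36% of all tested probe sets, but given that filter this is no support for a difference. Aldh1a2, Aldh1a3, Aldh3a1, Aldh3b1 and Aldh18a1 did not pass the filter.

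Markers of other cells were set beside the members. Of 5 cholangiocyte markers on the array 0 passed the filter, and their mean lay between 2.16 and 2.72 in Gsr-null livers, against 2.29 to 2.56 in WT livers. Of 6 tested periportal hepatocyte markers 0 were called (median 0.00), with means over 7 genes of 10.60 to 11.14 in Gsr-null and 10.50 to 10.85 in WT livers. Of 6 tested pericentral markers 1, Rhbg, which passed the filter only through the Gsr-null livers, was called higher (median 0.15), with means over 9 genes of 6.57 to 7.40 in Gsr-null and 6.80 to 6.97 in WT livers. Among Gsr-null livers, pericentral means were lowest in samples 4 and 5 (6.57 and 6.85), the samples with the highest Aldh3a2. The mean of sample 5 lay within the range of the WT livers. Slc1a2, Lgr5 and Axin2, counted in these means, did not pass the filter. Over the 6 tested periportal markers the means in samples 4 and 5 were 11.77 and 11.82, within the range of the WT livers (11.70 to 12.02). Hsd17b13, which did not pass the filter, was 7.23 and 7.10 in these samples, against 3.18 to 4.06 in the other Gsr-null livers and 3.26 to 3.87 in WT livers. The part of these markers in the spread of Aldh3a2 was not tested. Of 10 stellate cell and fibroblast markers 5 were tested and 0 called. The mean over all 10 was 5.40, 5.20, 4.97, 5.36, 5.23 and 4.67 in Gsr-null samples 1 to 6, against 4.78 to 4.94 in WT livers. On these means samples 1 to 5 lay above every WT liver and sample 6 below. Lrat, Des, Col1a1, Hand2 and Ngfr, counted in them, did not pass the filter. Sample 3 was above WT by a narrow margin (4.97 against at most 4.94), on an array with a higher floor, so its place rests partly on low values. The collagen genes Col1a2 and Col3a1 differed by 0.89 and 0.87 (limma adjusted p = 0.363 and 0.736), and Reln, Pdgfrb and Dcn by -0.19 to 0.01. The part of these markers in the differences of Aldh1b1 and Aldh4a1 was not tested. Of 7 tested Kupffer cell and macrophage markers and 7 of sinusoidal endothelium 0 were called. Means over 8 genes were 6.20 to 7.48 in Gsr-null and 6.40 to 7.27 in WT livers for the Kupffer cell list. For the endothelial list, also over 8 genes, they were 5.38 to 6.33 and 5.69 to 6.27. Marco (Kupffer cell list) and Pecam1 (endothelial list), counted in these means, did not pass the filter. None of 5 neutrophil and 7 B, T and NK cell markers passed the filter. The neutrophil mean was 3.68 in Gsr-null sample 1, where Aldh3a2 was lowest, against 2.18 to 2.55 in the other Gsr-null and 2.03 to 2.35 in WT livers. S100a8 (6.63) and S100a9 (6.5) alone carried it, while Mpo, Elane and Camp were 1.63, 1.91 and 1.75 in that sample. Of 3 erythroid markers 1 was tested and not called, with means over all 3 of 4.40 to 5.33 in Gsr-null and 4.37 to 4.61 in WT livers.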

How the data were processed

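Liver RNA of 6 Gsr-null and 5 WT mice was hybridised to single-colour Affymetrix arrays after biotin labelling from 1 µg of total RNA, per the labels' protocols. The authors deposited 1 log2 value per probe set and sample, made with GCRMA per the submitters' processing notes. GCRMA uses probe base content to correct background, then puts arrays on 1 scale and combines the probes of a set. The log2 scale is read from the values, which run from 0.329 to 14.724 with column medians of 3.182 to 3.324. Version and filters are not given in the sources used here. The number of arrays limits the precision.

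Of 22690 probe sets, 64 controls were left out. Of the rest, 20380 had 1 gene symbol in the platform annotation, 691 several and 1555 none; 20351 matched the RefSeq gene table (GRCm38.p6) by Entrez identifier. Probe sets above 4 in at least 5 samples were tested (9560 probe sets, 6022 genes) with limma 3.58.1 in R 4.3.3, adjusted by Benjamini-Hochberg over all of them, with calls at an adjusted p under 0.05. The scripts were tested on simulated data. Where a gene had several tested probe sets, the one brightest on average stands for it. Values of single pairs of genes were compared by exact permutation of the samples. The text names all members, Gsr, and of each pathway list its called genes or else the one with the smallest p. Cyp4a14, Prodh, Hoga1, single marker genes and genes resembling or opposing Aldh3a2 were named after their values were seen. The members and lists were chosen with earlier results of these data known. Other filters, scalings, blocks, weights, variance models and thresholds, and omitted samples, were tried as alternatives. Figures were drawn with matplotlib 3.10.9.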

Additional observations from a re-analysis of the deposited data

Results flagged for a closer look

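Dixon's test marked 1 sample as distant from the rest of its genotype for 3 genes, out of 56 groups of values tested, where chance alone gives about 2.8. Aldh7a1, on its brightest probe set, was 11.08 in Gsr-null sample 1, against 11.32 to 11.43 in the other Gsr-null livers. Aldh9a1, on its brightest probe set, reached 12.25 in WT sample 1, while the other WT livers held 11.65 to 11.81. Qprt was 9.40 in Gsr-null sample 6, against 9.74 to 9.87 in the other Gsr-null livers.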

How the results depend on the processing

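Of 234 values of Gsr and the member genes under alternatives, 225 changed neither direction nor call. Some settings by their making test fewer features, use fewer samples or ask for a smaller p. The cause of each change was not tested. Aldh1b1, at 1.20, lost its call with the replicate number as a block (1.27, limma adjusted p = 0.101), without Gsr-null samples 2 and 3 (1.26) and without WT sample 5, and spanned 1.11 to 1.30 without 1 sample. Aldh4a1 gained a call once the 3' to 5' set was a block (0.76). Aldh7a1 had no settled sign, at -0.01 without Gsr-null samples 2 and 3 and -0.01 to 0.06 without 1 sample. Called member probe sets, 1 higher and 0 lower, were 0 higher in the replicate block, without samples 2 and 3 and at the threshold of 0.01, 2 with the set block, and 0 to 1 without 1 sample. In the pathway lists 1 gene, Ppt1, was called with array weights, quantile normalization or median centring, and 0 to 1 without 1 sample. Called probe sets over the whole table, 16 higher and 21 lower, were 7 and 7 with the filter at 6, 2 and 1 in the replicate block, 6 and 4 without samples 2 and 3, and 7 and 5 at the stricter threshold of 0.01. On leaving out 1 sample they spanned 9 to 24 higher and 5 to 19 lower; WT 5 alone moved the higher count (to 9) by over 1.5 times, and Gsr-null 2 and 3 and each WT sample moved the lower count (to 5 to 12). The shift of Aldh1a7 relative to Aldh1a1, 0.14, was 0.31 without samples 2 and 3. Replicate numbers did not pair the samples: same-numbered samples correlated in their deviations at -0.243 to 0.036, and for 0 of 5 numbers was the WT sample closest to its Gsr-null namesake.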

Other observations

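Rdh16, a retinol dehydrogenase that supplies retinal to enzymes such as Aldh1a1, was uneven among Gsr-null livers as Aldh3a2 was. It was 7.06, 7.62, 6.76, 10.17, 10.51 and 8.35 in Gsr-null samples 1 to 6, against 8.03, 8.73, 6.86, 8.69 and 7.46 in WT samples 1 to 5, with samples 4 and 5 above every WT liver. The difference of means was 0.46 (SE 0.684, limma adjusted p = 0.97). Rdh16 was singled out after its values had been seen.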
